A study of Homo sapiens with 42 samples.

Results

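The libraries of the last sorted fractions of S phase, S5 and S6, were set against those of the S4 fraction that precedes them, to see which chromatin contacts faded, stayed or lay farther out as S phase ended. Members were chosen by the fraction in the labels: 12 S5 and S6 libraries and 6 S4 libraries, 18 of the 42 libraries of the series. Each of 3 primers contributed 4 late libraries (2 S5 and 2 S6) and 2 S4 libraries, and each primer was compared apart. All came from K562-FUCCI, a chronic myeloid leukaemia cell line with a fluorescent cell-cycle reporter inserted at the AAVS1 locus, and no drug or other treatment separates the groups. Cells were stained with Hoechst33342, a DNA dye, and sorted by DNA content into a G1 fraction and the S-phase fractions S1 to S6. The labels do not say whether the 2 libraries of a fraction came from separate cultures, so every p-value rests on the spread among libraries that may be technical repeats.

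Each library reads the ligation partners of 1 fixed position, the viewpoint, on chromosome 9 (hg19). The Proximal viewpoint is at 111624875, the Distal viewpoint at 111525048, 99.8 kb away, and the Outside viewpoint at 111110106, 414.9 kb from Distal. By their labels, the first pair sits in a fountain and the Outside primer lies beyond it. A fountain is a plume-shaped pattern in a contact map that spreads from a narrow base. Ligation after crosslinking reports which fragments lay close together in the nucleus, and most partners of any site are its neighbours along the chromosome. In S phase, DNA is copied from origins by pairs of forks that move apart, and different domains are copied at different times. In the RefSeq annotation of GRCh38.p14, a different build from that of the files, genes of this neighbourhood include, in order of rising coordinate, RAD23B, KLF4, ACTL7B, ACTL7A, ABITRAM, CTNNAL1, TMEM245, FRRS1L, EPB41L4B, PTPN3 and PALM2AKAP2. RAD23B is a nucleotide excision repair factor, KLF4 a zinc-finger transcription factor and PTPN3 a tyrosine phosphatase. An hg19 annotation was not used here, so no window below is assigned to a gene.

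Every library held 16350 lines, each 1 genomic position of a ligation partner. A share below is a percent of those lines, so a lower share at some distances goes with a higher share at others. Local lines are those on chromosome 9 at a distance of more than 20 kb and up to 2 Mb. They numbered 8148 to 10909 in the late libraries and 8767 to 10957 in the S4 libraries. Between 39.8% and 68.1% of lines in the late libraries repeated a position already listed, and between 42.2% and 63.3% in the S4 libraries. Between the 2 libraries of a fraction, counts over 50 kb windows differed in all 9 pairs by more than the sampling noise of independent lines. No pair was thus the same set of lines under 2 names. Lines that repeat a position are not independent, so this does not tell whether a pair came from 1 ligation product.

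After S4, contacts at 20 to 500 kb from the viewpoint took a smaller share of every primer's libraries, and contacts at 2 to 20 Mb took a larger one. The lines of each library were split into 20 classes by distance and side, and the change was the log2 ratio of shares, the mean of S5 and S6 over S4, tested with limma and adjusted by Benjamini-Hochberg over the 60 classes of the 3 primers (adjusted p below 0.05). Among the Proximal classes 6 rose (30% of those tested) and 2 fell (10%). Among the Distal classes 9 rose (45%) and 4 fell (20%), and among the Outside classes 8 rose (40%) and 3 fell (15%). All 9 classes that fell lay between 20 and 500 kb, and the other 9 classes there did not pass. Between 500 kb and 2 Mb 6 of 12 classes rose and the others did not pass, with log2 changes below 0 in 4 of the 12. Between 2 and 20 Mb 16 of 18 rose, and the other two had log2 changes above 0 and did not pass. These counts rest on 2 S4 libraries per primer. Without the second S4 library 5 Proximal, 8 Distal and 7 Outside classes were called, against 8, 13 and 11 with it.

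**Figure D1:**
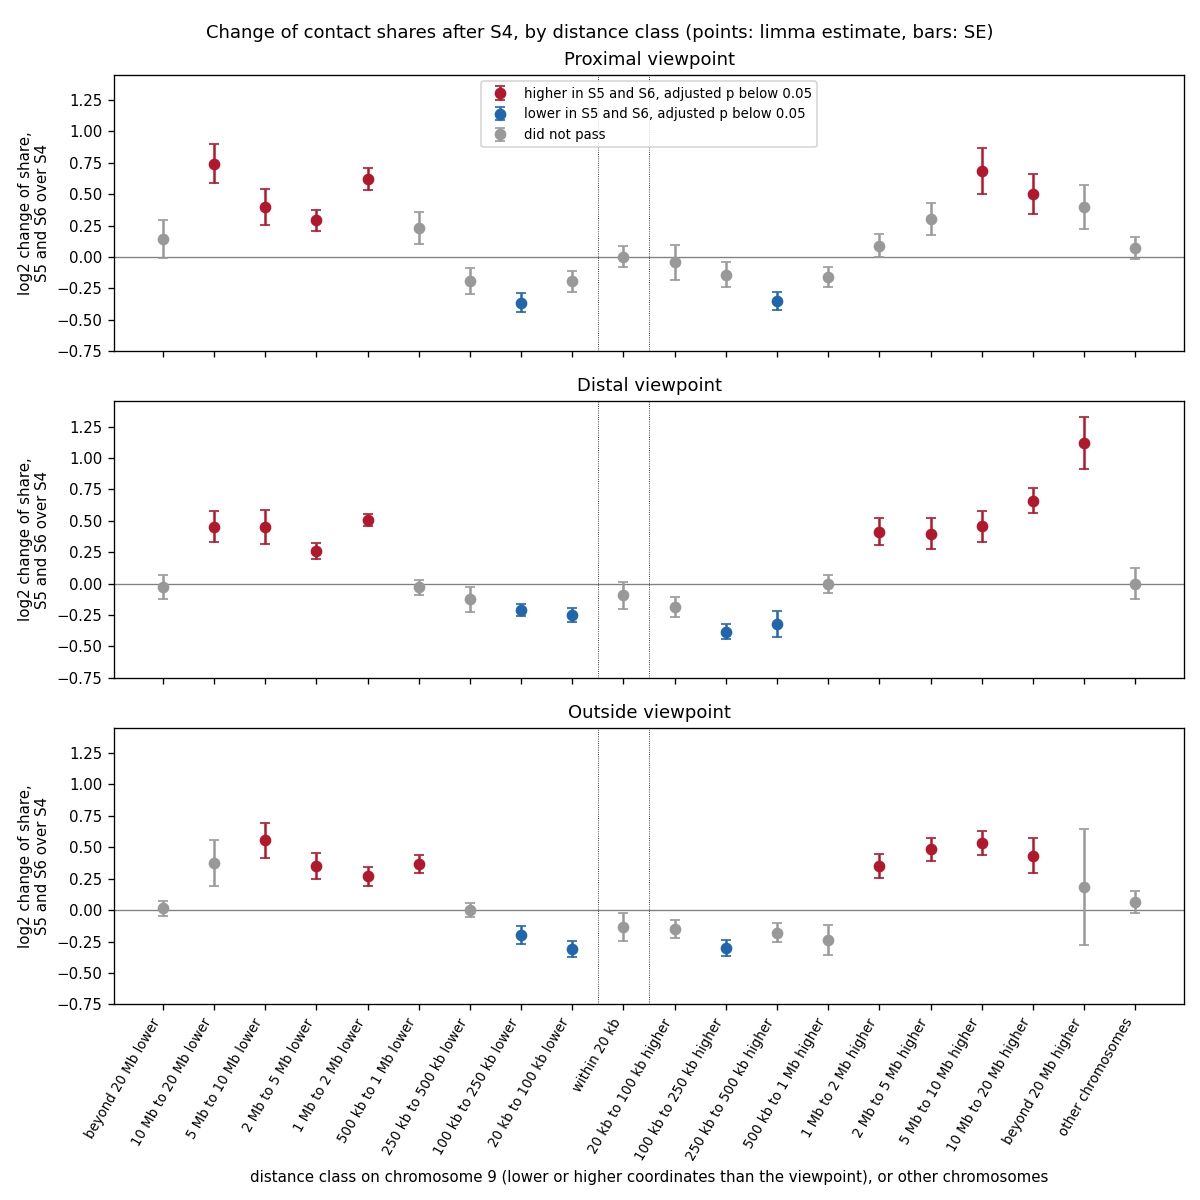
Log2 change of the share of library lines, the mean of S5 and S6 over S4 (y axis), in 20 distance classes (x axis, from far on the lower-coordinate side through the viewpoint to far on the higher-coordinate side, then other chromosomes), 1 panel per viewpoint. Points are limma estimates and bars their SE. Red classes rose, blue classes fell and grey classes did not pass. The blue points sit next to the viewpoint, within 500 kb, and the red ones beyond 500 kb.

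For the Proximal viewpoint, the summed share at 20 to 500 kb was 31.7% and 33.1% in the S5 libraries and 29.6% and 30.5% in the S6 libraries, against 36.1% and 36.6% in the S4 libraries. For the Distal viewpoint it was 36.5%, 35.4%, 32.9% and 32.5% in the late libraries, against 40.0% and 40.2% in the S4 libraries. The Outside viewpoint gave 40.8%, 42.4%, 38.4% and 38.4% in the late libraries, against 45.2% and 46.0% in the S4 libraries. In all 3 primers every late library lay below both S4 libraries, and both S6 libraries lay below both S5 libraries. The means were 31.2% ± 1.53 (SD, n = 4) against 36.4% ± 0.338 (n = 2) for Proximal, 34.3% ± 1.93 against 40.1% ± 0.156 for Distal and 40.0% ± 1.94 against 45.6% ± 0.566 for Outside, the late libraries first. Here and below, the SD of the late libraries pools S5 and S6 and so includes the difference between these fractions.

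The near classes that fell included 100 to 250 kb on both sides of Distal and Outside and on the lower side of Proximal. On the higher side of the Distal viewpoint, the class held 2.96%, 3.24%, 2.81% and 2.62% of lines in the late libraries, against 3.70% and 3.86% in the S4 libraries. That is a log2 change of -0.38 (SE 0.060, limma adjusted p = 0.00139). On the higher side of the Outside viewpoint it averaged 6.93% ± 0.467 in late libraries and 8.54% ± 0.177 in S4 libraries (log2 change -0.30, adjusted p = 0.00397). On the lower side of the Proximal viewpoint it averaged 3.41% ± 0.264 in late libraries and 4.37% ± 0.0865 in S4 libraries (log2 change -0.36, adjusted p = 0.00307). Late and S4 libraries did not overlap in any of these. Higher-side Proximal contacts 100 to 250 kb away had a log2 change of -0.14 and did not pass (adjusted p = 0.245), and the lower-side classes at this distance fell by 0.21 for Distal (adjusted p = 0.00623) and 0.20 for Outside on the log2 scale (adjusted p = 0.0316, but 0.158 and 0.0798 without the first and the second S4 library). The classes at 20 to 100 kb on the lower side also fell for Distal (log2 change -0.25, adjusted p = 0.00416) and for Outside (-0.31, adjusted p = 0.00406).

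On the higher side of the Proximal viewpoint, the 250 to 500 kb class is the part of the profile that had grown most between G1 and S4 within 500 kb on that side. It held 10.0% and 9.66% of lines in the S5 libraries and 8.29% and 8.18% in the S6 libraries, against 11.7% and 11.3% in the S4 libraries. Its log2 change was -0.35 (SE 0.070, adjusted p = 0.00294). It averaged 4.75% of lines in G1 libraries, 11.5% in S4 libraries, 9.85% in S5 libraries and 8.23% in S6 libraries, and S6 thus kept 51.9% of the difference between S4 and G1. The matching Distal class, 250 to 500 kb on the higher side, also fell, 3.32% ± 0.338 in late libraries and 4.14% ± 0.203 in S4 libraries (log2 change -0.32, adjusted p = 0.0227). That call is lost without either S4 library (adjusted p = 0.117 and 0.0528), without the second S5 library (0.0635) or without the second S6 library (0.0583).

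Some contacts stayed. Higher-side Distal contacts at 500 kb to 1 Mb held 9.95%, 9.21%, 10.2% and 9.35% of lines in late libraries, against 9.46% and 9.90% in the S4 libraries. The groups overlapped and the log2 change was -0.0025 (SE 0.071). The same class had been at 4.75% in G1 and stayed well above that level in all late libraries. For the Proximal viewpoint the class averaged 7.75% ± 0.216 in late libraries and 8.66% ± 0.195 in S4 libraries, which did not overlap, yet it did not pass (log2 change -0.16, adjusted p = 0.105). For the Outside viewpoint it was 2.77% ± 0.385 and 3.24% ± 0.00865 (log2 change -0.24, adjusted p = 0.105), again with no overlap. The fall passed in 4 of 19 alternative settings for Proximal and in 3 of 19 for Outside, so neither class is said to have stayed. Lines within 20 kb of the viewpoint, which hold undigested and self-ligated fragments as well as contacts, were not called for any primer, with log2 changes of 0.0015 for Proximal, -0.094 for Distal and -0.13 for Outside.

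On the lower side, contacts at 1 to 2 Mb rose for all 3 primers. The Proximal viewpoint had 5.48% and 6.38% of lines there in the S5 libraries and 7.66% and 6.58% in the S6 libraries, against 4.01% and 4.43% in the S4 libraries. The log2 change was 0.62 (SE 0.088, adjusted p = 0.000613). The Distal viewpoint had 11.99% and 12.6% in the S5 libraries and 13.8% and 13.9% in the S6 libraries, against 9.29% and 9.10% in the S4 libraries (log2 change 0.51, SE 0.045, adjusted p = 4.04e-05). For both, all late libraries lay above both S4 libraries and the S6 libraries above the S5 libraries. Of the classes at 500 kb to 2 Mb, 2 of 4 Proximal, 2 of 4 Distal and 4 of 4 Outside had no overlap. The Outside class at 1 to 2 Mb on the lower side rose as well (log2 change 0.27, adjusted p = 0.0114, but 0.0625 without the first S4 library). It rose by more at 500 kb to 1 Mb, 11.6% ± 0.489 in late libraries and 9.03% ± 0.584 in S4 libraries (log2 change 0.37, adjusted p = 0.00295). The Outside viewpoint itself lies at lower coordinates than the others and thus nearer to the far lower-side windows given below. On the higher side, the 1 to 2 Mb class rose for Distal (log2 change 0.41, adjusted p = 0.0114) and for Outside (0.35, adjusted p = 0.0114). Both calls are lost without the second S4 library (adjusted p = 0.0771 and 0.0815). The Proximal class had a log2 change of 0.089 and did not pass.

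**Figure D2:**
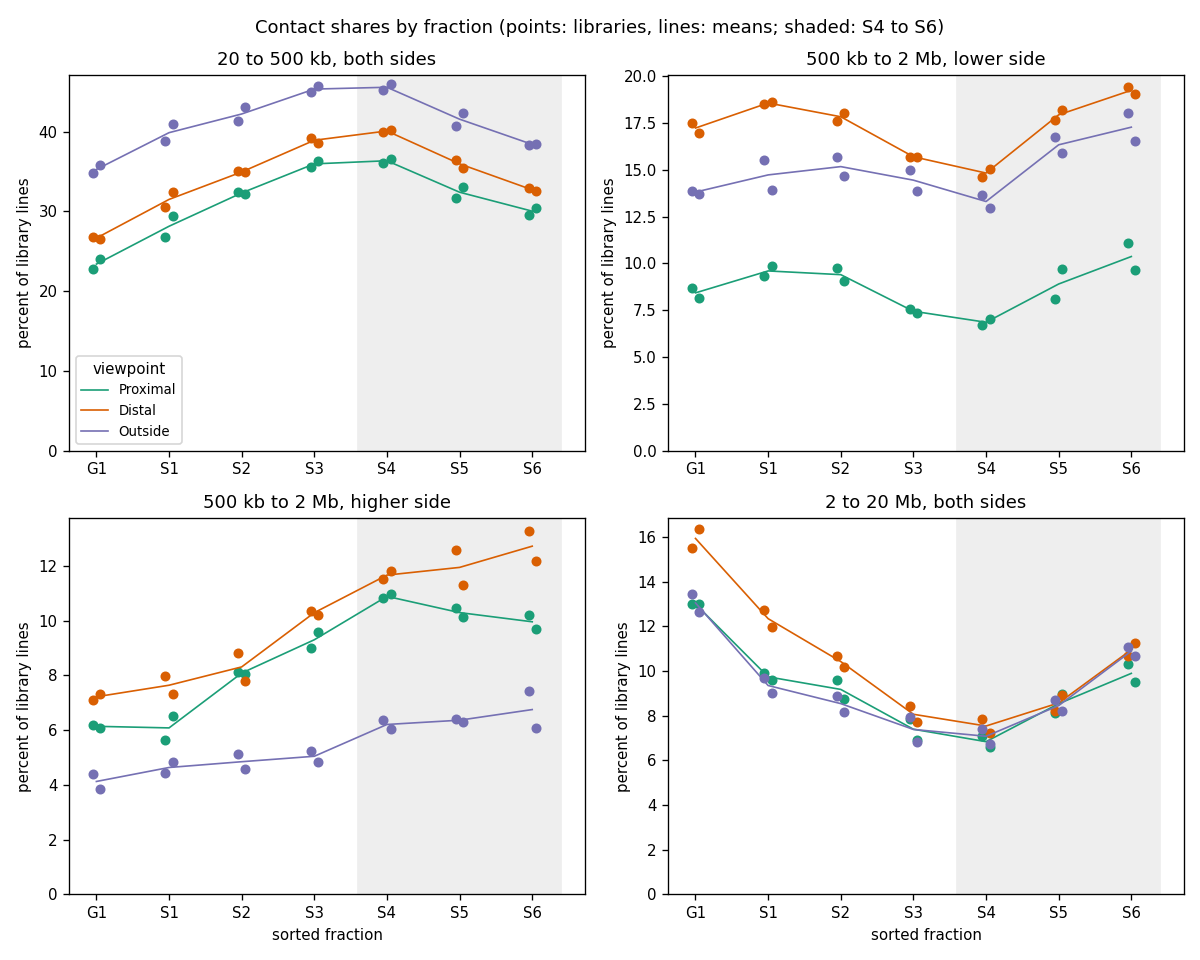
Share of library lines (y axis, percent) by sorted fraction from G1 to S6 (x axis) in 4 distance zones. Points are libraries, lines join the means of 2 libraries and colours are viewpoints. In the shaded range, S5 and S6 lie below S4 at 20 to 500 kb and above it at 2 to 20 Mb for each viewpoint.

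Contacts at 2 to 20 Mb, which were scarcer in S4 than in G1, were more frequent in the late fractions. Their summed Proximal share was 8.12%, 8.95%, 10.3% and 9.49% in the late libraries, against 7.07% and 6.60% in the S4 libraries. For Distal it was 8.22%, 8.92%, 10.7% and 11.25% against 7.83% and 7.24%, and for Outside 8.68%, 8.22%, 11.1% and 10.7% against 7.41% and 6.75%, the late libraries first in both. No late library fell within the S4 range. By fraction, it averaged 15.9% in Distal G1 libraries, 7.54% in S4 libraries, 8.57% in S5 libraries and 10.95% in S6 libraries. The rise was seen on both sides of each viewpoint, 5 of 6 classes for Proximal, 6 of 6 for Distal and 5 of 6 for Outside. The largest log2 change among these 16 was 0.74, in the Proximal class at 10 to 20 Mb on the lower side (SE 0.15, adjusted p = 0.00295). That class held 0.911%, 0.893%, 1.14% and 1.01% of lines in the late libraries, against 0.593% and 0.581% in the S4 libraries. The Outside viewpoint had 1.13%, 1.35%, 1.85% and 1.86% of lines at 5 to 10 Mb on the higher side in the late libraries, against 1.05% and 1.03% in the S4 libraries (log2 change 0.54, adjusted p = 0.0028). At 10 to 20 Mb on that side the Distal viewpoint had 0.850%, 1.00%, 0.948% and 1.14%, against 0.642% and 0.599%, the late libraries first (log2 change 0.66, adjusted p = 0.00129). In these classes every late library lay above both S4 libraries. Of the 16 far classes that rose, those left after removing any 1 library, counting each position once and fitting the percent itself were Proximal 10 to 20 Mb lower, Distal 10 to 20 Mb higher, Outside 2 to 5 Mb and 5 to 10 Mb higher, and Outside 5 to 10 Mb lower.

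Beyond 20 Mb the arms of chromosome 9 gave 1 call. Distal lines beyond 20 Mb on the higher side were 0.208%, 0.196%, 0.190% and 0.232% in the late libraries, against 0.0979% and 0.0917% in the S4 libraries (log2 change 1.12, SE 0.21, adjusted p = 0.0028). These shares stand for few lines per library, and fitting the percent itself gave adjusted p = 0.177. The same class had log2 changes of 0.40 for Proximal and 0.18 for Outside and did not pass. Beyond 20 Mb on the lower side the log2 changes were 0.15, -0.028 and 0.014 for Proximal, Distal and Outside. Lines on other chromosomes made up 8.25% ± 0.524 of late and 7.86% ± 0.376 of S4 Proximal libraries, 8.34% ± 0.691 and 8.36% ± 1.23 of Distal libraries, and 10.1% ± 0.695 and 9.59% ± 0.601 of Outside libraries. None of these was called. Tested 1 by 1 with limma, 0 of 22 other chromosomes were called for any primer (0%), and 1, 0 and 1 had an unadjusted p below 0.05 for Proximal, Distal and Outside. Log2 changes of single chromosomes ran between -0.67 and 0.56, and the lowest adjusted p was 0.872.

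Within 2 Mb the changes were then placed in 50 kb windows, as lines per 10000 local lines. The windows that rose lay over 500 kb from the viewpoint, and those that fell lay within 500 kb of it. For Proximal 7 of 70 windows rose (10%) and 2 fell (2.86%). For Distal 11 of 73 rose (15.1%) and 7 fell (9.59%), and for Outside 8 of 79 rose (10.1%) and 3 fell (3.8%). Scaled to the whole library, 5 rose (7.14%) and 2 fell (2.86%) for Proximal, 11 rose (15.1%) and 8 fell (11%) for Distal, and 6 rose (7.59%) and 3 fell (3.8%) for Outside. All of these except 1 Distal window that fell were also called with local scaling. Over all windows the median log2 change was 0.15 for Proximal, 0.12 for Distal and 0.15 for Outside with local scaling. Without the second S4 library the counts of calls with local scaling were 1, 7 and 2, against 9, 18 and 11 with it. Without the first they were 3 for Proximal and 9 for Distal.

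On the lower side, the 50 kb windows that rose lay between 109650001 and 110450000. Of the 7 Proximal windows that rose, 5 (71.4%) were among the 11 Distal ones (45.5%). All 3 primers shared 3 such windows, 42.9% of the Proximal, 27.3% of the Distal and 37.5% of the Outside list, and they run from 110150001 to 110250000 and from 110300001 to 110350000. The Distal viewpoint, 1300 kb away, had its lowest adjusted p at 110200001 to 110250000. There it had 239.3, 244.8, 305.9 and 325.2 lines per 10000 local lines in the late libraries, against 171.1 and 162.5 in the S4 libraries. The log2 change was 0.72 (SE 0.084, limma adjusted p = 4.89e-07), and it passed under every alternative setting run on it. All late libraries lay above both S4 libraries, and the S6 libraries above the S5 libraries. This was the only Distal window called between S6 and S5 with local scaling (log2 difference 0.38, adjusted p = 0.0449), and it was not called with whole-library scaling or in 11 of 14 runs that leave out 1 library, all but those without a G1 library or the second S6 library. The adjoining Distal windows at 110100001 to 110150000 and 110150001 to 110200000 rose by log2 changes of 0.73 and 0.65 (adjusted p = 8.51e-06 and 8.21e-05), under every setting as well. Farther out, the Distal window at 109650001 to 109700000 had 29.3, 26.4, 45.7 and 32.6 lines per 10000 in the late libraries, against 13.9 and 16.4 in the S4 libraries (log2 change 1.03, SE 0.26, adjusted p = 0.00602, but 0.0734 without the first S4 library).

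The Proximal viewpoint had its largest change at 110150001 to 110200000. It had 91.3 and 129.4 lines per 10000 in the S5 libraries and 196.0 and 141.1 in the S6 libraries, against 50.2 and 62.8 in the S4 libraries (log2 change 1.23, SE 0.20, adjusted p = 8.38e-05, but 0.0639 with a quasi-Poisson model). Its G1 libraries averaged 170.4 ± 58.0 lines per 10000. A second Proximal cluster at 110300001 to 110450000 rose by log2 changes of 0.75, 0.78 and 1.11, each of which is lost without either S4 library (the third then has adjusted p = 0.0517 and 0.0656). In 20 kb windows, 6 of 154 Proximal windows rose (3.9%) and 1 fell (0.649%), and all 7 overlapped 50 kb windows that were called. The steepest 20 kb window, at 110240001 to 110260000, which reaches past the called windows into one that did not pass, had 35.9 lines per 10000 in late libraries and 9.02 in S4 libraries (log2 change 1.81, SE 0.42, adjusted p = 0.0103). For Distal 9 of 165 windows of 20 kb rose (5.45%) and 0 fell with limma, where 37 had an unadjusted p below 0.05, and for Outside 6 of 163 rose (3.68%) and 1 fell (0.613%). Of these, 7 of 9 for Distal and 5 of 7 for Outside overlapped the called 50 kb windows that are named here. Outside windows at 109460001 to 109480000 and 109480001 to 109500000 did not (log2 changes 2.22 and 1.58, limma adjusted p = 0.0051 and 0.0369). They averaged 2.35 and 4.70 lines per 10000 in S4 libraries. Windows of 20 and 50 kb count the same lines.

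The Outside viewpoint is nearer to that region, and its windows that rose there were centred -935.1 to -685.1 kb away. The window at 110150001 to 110200000 had 185.6, 136.4, 186.0 and 180.3 lines per 10000 in the late libraries, against 116.3 and 96.1 in the S4 libraries (log2 change 0.68, SE 0.15, adjusted p = 0.000729, but 0.0602 without the second S4 library). The Outside viewpoint was also the only one with windows that rose on the higher side. At 112400001 to 112450000 it had 45.0, 50.2, 52.7 and 48.1 lines per 10000 in the late libraries, against 21.6 and 27.3 in the S4 libraries (log2 change 0.93, adjusted p = 0.0179, but 0.179 and 0.0602 without the first and the second S4 library and 0.051 without the first S6 library). At 113050001 to 113100000 the late libraries averaged 13.8 ± 5.09 and the S4 libraries 3.76 ± 1.32 lines per 10000, which is a handful of lines, and the call (adjusted p = 0.044) is lost in most leave-one-out runs. The change in these 2 windows was not called different from that of Proximal (limma adjusted p = 0.192 and 0.0735) or Distal (0.857 and 0.73). The Outside window at 109800001 to 109850000, on the lower side, had 57.4, 38.8, 51.8 and 44.1 lines per 10000 in the late libraries, against 28.1 and 14.1 in the S4 libraries (log2 change 1.14, SE 0.28, adjusted p = 0.000991, but 0.254 without the second S4 library).

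**Figure D3:**
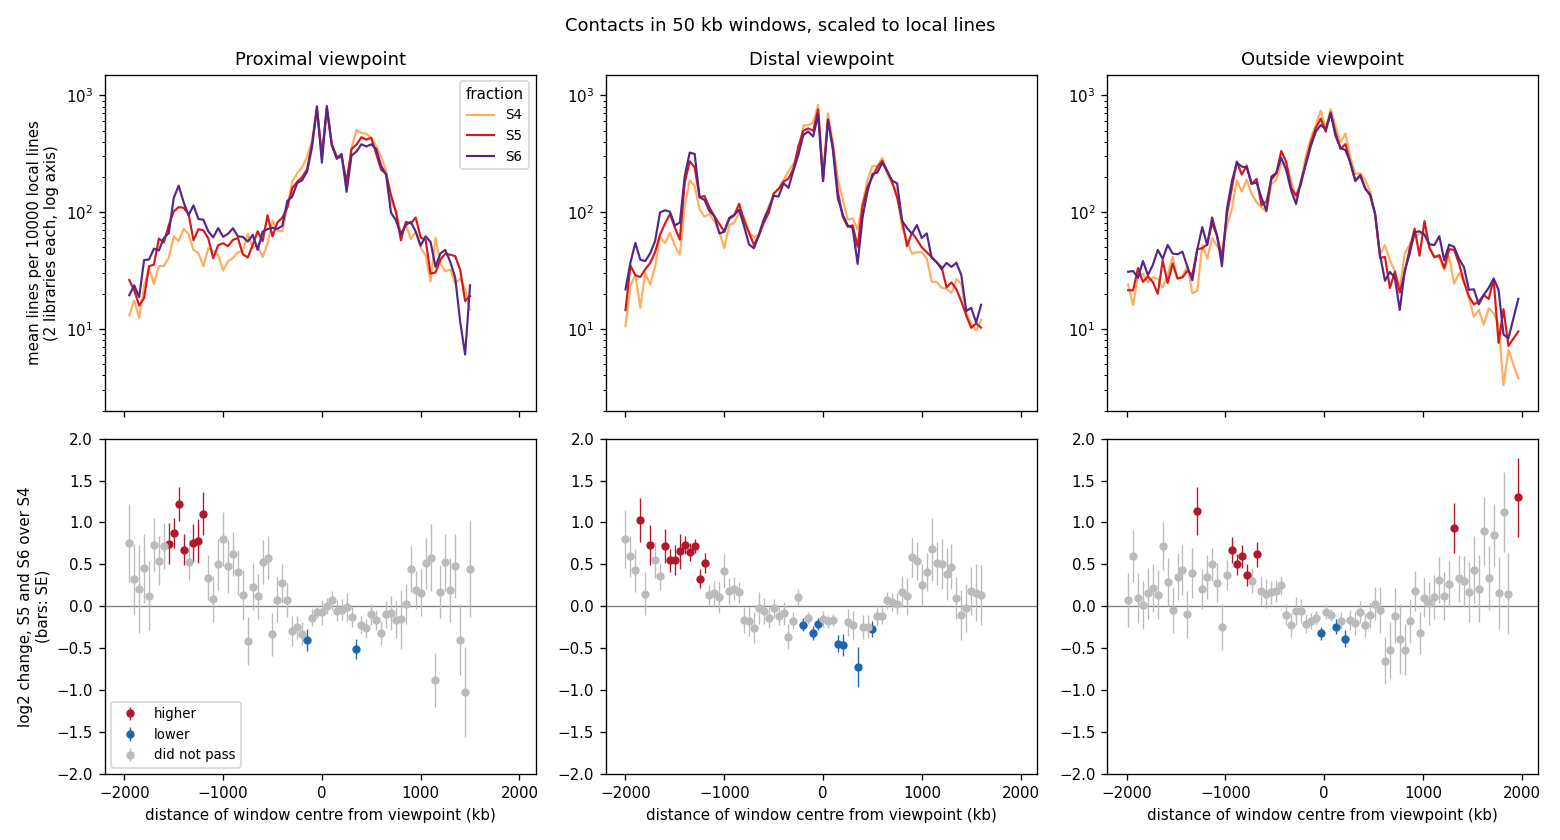
Top, mean lines per 10000 local lines (log axis, 2 libraries per fraction) in 50 kb windows against the distance of the window centre from the viewpoint (kb, lower coordinates to the left), for S4, S5 and S6. Bottom, log2 change of the mean of S5 and S6 over S4, with SE bars. Red windows rose, blue windows fell and grey windows did not pass. For Proximal and Distal all red windows sit to the left, from -1850 to -1199.9 kb, and for Outside 6 of 8 sit to the left, from -1285.1 to -685.1 kb.

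The windows that fell lay close to the viewpoints. For Proximal, the window at 111950001 to 112000000, 350 kb on the higher side, had 422.4, 333.8, 335.5 and 325.2 lines per 10000 in the late libraries, against 537.2 and 469.7 in the S4 libraries. The log2 change was -0.51 (SE 0.12, adjusted p = 0.00447), and it is lost without either S4 library (adjusted p = 0.198 and 0.0606). In 20 kb windows the fall lay at 111960001 to 111980000 (log2 change -0.63, adjusted p = 0.0453). The second Proximal window that fell, at 111450001 to 111500000, had a log2 change of -0.40 (adjusted p = 0.045), and it is lost in 8 of 14 runs that leave out 1 library, among them those without either S4 library (adjusted p = 0.198 and 0.232). The next largest negative changes among windows with at least 30 lines on average did not pass, at 110850001 to 110900000 (log2 change -0.41, adjusted p = 0.339), 111100001 to 111150000 (-0.33, adjusted p = 0.382) and 111400001 to 111450000 (-0.32, adjusted p = 0.115).

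For Distal, the window at 111650001 to 111700000, just past the Proximal viewpoint, had 142.1, 157.2, 126.8 and 136.2 lines per 10000 in the late libraries, against 195.1 and 187.1 in the S4 libraries (log2 change -0.44, SE 0.096, adjusted p = 0.00186). This fall passed under every alternative setting run on it. The steepest Distal fall was at 111850001 to 111900000, 43.3 ± 11.1 lines per 10000 in late libraries and 70.7 ± 3.24 in S4 libraries (log2 change -0.72, adjusted p = 0.0305), a window with few lines whose call is lost without either S4 library. On the lower side, Distal windows at 111300001 to 111350000 and 111400001 to 111500000 fell by 0.22, 0.32 and 0.21 on the log2 scale (adjusted p = 0.0325, 0.00581 and 0.0283). Without the first S4 library these had adjusted p = 0.123, 0.157 and 0.157, and with each position counted once the second had a log2 change of -0.072 (adjusted p = 0.298). The window next to the steadiest fall, at 111700001 to 111750000, had 85.3, 97.0, 104.4 and 85.4 lines per 10000 in the late libraries, against 126.7 and 129.6 in the S4 libraries (log2 change -0.46, adjusted p = 0.0146, but 0.0887 and 0.122 without the first and the second S4 library). For Outside, the window at 111300001 to 111350000, between the Outside and Distal viewpoints, had 402.7, 362.7, 329.8 and 348.6 lines per 10000 in the late libraries, against 467.2 and 474.6 in the S4 libraries (log2 change -0.38, SE 0.098, adjusted p = 0.00127, but 0.0602 without the second S4 library). The late libraries lay below both S4 libraries in each of these windows.

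Contacts between the viewpoints themselves were not called in the main fits. From Proximal, the window that holds the Distal viewpoint had 371.6 ± 28.8 lines per 10000 in late libraries and 407.0 ± 17.4 in S4 libraries (log2 change -0.13, adjusted p = 0.382). From Distal, the window that holds the Proximal viewpoint had 350.7 ± 16.7 and 392.2 ± 18.4 (log2 change -0.16, adjusted p = 0.108), the late libraries first. With whole-library scaling its log2 change was -0.19 (limma adjusted p = 0.0551). Its fall passed in 1 of 23 alternative settings with local and in 4 of 23 with whole-library scaling. From Outside, the Distal window had 159.7 ± 13.6 in late libraries and 188.5 ± 39.7 in S4 libraries (log2 change -0.22, adjusted p = 0.337) and the Proximal window 96.9 ± 6.72 and 94.5 ± 1.74 (log2 change 0.033, adjusted p = 0.898). The windows that hold the Outside viewpoint had log2 changes of -0.33 from Proximal and -0.084 from Distal and did not pass.

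Stretches picked from earlier results of these data are given next as values, with no test, in kb from the Proximal viewpoint. The stretch at 260 to 420 kb on the higher side had 1210, 1120, 1060 and 999.0 lines per 10000 in late Proximal libraries, against 1380 and 1302 in S4 libraries. Next to it, the stretch at 440 to 660 kb had 1494, 1377, 1332 and 1415 in late Proximal libraries, against 1580 and 1652 in S4 libraries. Late and S4 libraries did not overlap in either, and the late mean was 0.818 times the S4 mean in the nearer stretch and 0.869 times in the farther one. For Distal the nearer stretch was at 0.853 times its S4 mean and the farther one at 0.99 times, and late and S4 libraries overlapped in both. The ratio of lines in the farther stretch to those in the nearer one was 1.23, 1.23, 1.26 and 1.42 in late Proximal libraries, against 1.15 and 1.27 in S4 libraries, so the groups overlapped. In Distal libraries it was 1.86, 2.21, 2.05 and 2.20 in late libraries, against 1.66 and 1.91 in S4 libraries, which also overlapped. Set out by fraction, the Distal ratio averaged 2.26 in G1, 1.42 in S1 and 1.79 in S4, then 2.03 in S5 and 2.12 for S6.

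The stretch at -1700 to -1400 kb, on the lower side, was at 1.82 times its S4 mean for Proximal, 1.63 times for Distal and 1.35 times for Outside, and no late library fell within the S4 range. For Distal its lines per 10000 were 796.6, 922.6, 1030 and 1036 in late libraries, against 603.0 and 558.5 in S4 libraries. Distal S6 libraries averaged 1033 ± 3.94 and G1 libraries 1037, a match seen with local scaling only. Local lines numbered 10724 and 10425 in those S6 libraries and 8401 and 8309 in the G1 libraries. As a percent of all lines, the Distal S6 mean of 6.68% lay above the means of G1 (5.30%) and S4 (3.865%). For Proximal, S6 lay below G1 with local scaling (568.9 against 634.5) but above it as a percent (2.865% against 2.407%). Outside S6 lay above G1 both ways. The stretch around the Distal and Proximal viewpoints was at 0.897 times its S4 mean for Proximal and 0.882 times for Distal, with no overlap, and at 0.936 times for Outside, with overlap. The stretch at -380 to -290 kb, between the Outside and Distal viewpoints, was at 0.832 times its S4 mean for Outside, 647.0 ± 40.6 lines per 10000 in late libraries and 777.7 ± 25.2 in S4 libraries, with no overlap. For Proximal and Distal it was at 1.005 and 0.976 times, with overlap. The stretch at -910 to -660 kb was at 1.17, 0.91 and 0.91 times its S4 mean for Proximal, Distal and Outside, with overlap in each.

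**Figure D4:**
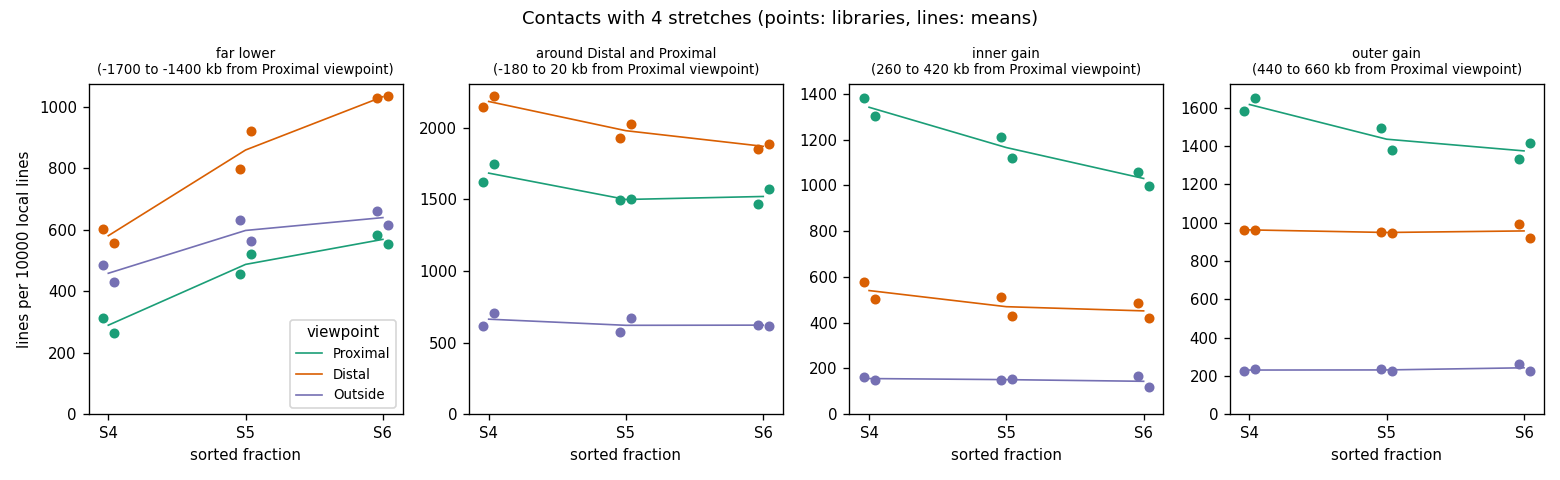
Lines per 10000 local lines (y axis) in 4 stretches, given in kb from the Proximal viewpoint, in S4, S5 and S6 (x axis). Points are libraries, lines join means and colours are viewpoints. In the far lower stretch the late libraries lie above the S4 libraries for each viewpoint. In both higher-side stretches they lie below them for Proximal and overlap them for Distal.

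The distance of local lines was also summarised as 1 median per library and side. On the lower side of Proximal the median was 318.0, 359.2, 458.8 and 374.5 kb in the late libraries, against 239.3 and 225.1 kb in the S4 libraries. Distal medians on that side were 351.3, 384.5, 467.3 and 434.4 kb in the late libraries, against 286.4 and 302.9 kb in the S4 libraries. Outside medians averaged 470.3 kb in the late libraries and 376.8 kb in the S4 libraries. Lower-side contacts thus lay farther out in every late library, by 145.4, 114.7 and 93.5 kb on average. On the higher side the Distal median was 503.6, 471.5, 519.2 and 518.0 kb in the late libraries, against 456.8 and 441.7 kb in the S4 libraries, a difference of 53.8 kb. The higher-side medians of Proximal (385.9 ± 2.6 kb late and 389.5 ± 1.0 kb in S4) and Outside (214.5 ± 11.6 kb and 205.8 ± 6.8 kb) overlapped between the groups. With 4 against 2 libraries the exact two-sided permutation test cannot go below p = 0.133, the value that all 4 separated sets reached (adjusted over 6 tests, 0.2).

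S5 lay between S4 and S6 in most classes that changed: 22 of the 23 classes that rose and 9 of the 9 that fell, against 16 of the 28 that were not called. Since S5 and S6 both entered the calls, this is a description of order only. Set against S4 alone, S5 had 2 classes higher for Proximal (10%), 3 higher and 1 lower for Distal (15% and 5%) and 1 higher for Outside (5%). S6 had 8 higher and 2 lower for Proximal (40% and 10%), 9 and 4 for Distal (45% and 20%) and 9 and 3 for Outside (45% and 15%). In 50 kb windows with local scaling, S5 had 1 window higher for Proximal (1.43%), 5 higher and 2 lower for Distal (6.85% and 2.74%) and 5 higher for Outside (6.33%). S6 had 6 and 1 for Proximal (8.57% and 1.43%), 17 and 7 for Distal (23.3% and 9.59%) and 7 and 4 for Outside (8.86% and 5.06%). Leaving out 1 library at a time, S5 window counts ran from 0 to 2 for Proximal, 3 to 7 for Distal and 0 to 6 for Outside, and S6 window counts from 5 to 13, 8 to 25 and 4 to 11. S5 class counts ran from 0 to 5, 1 to 5 and 0 to 2, and S6 class counts from 6 to 10, 11 to 13 and 9 to 12. The S5 window count was 0 for Proximal without either S4 library or the second S5 library, and 0 for Outside without the second S4 or first S5 library. For Distal it was 3 without either S4 library and 4 without any 1 of the S2, S3 and S5 libraries. The S6 window count for Distal was 10 and 8 without the first and the second S4 library and 11 and 13 without the first and the second S6 library. For Outside it was 6 without the second S4 library and 5 and 4 without the first and the second S6 library, and for Proximal 13 without the second S6 library. The S5 class count was 0 for Proximal without the first S4 or second S5 library, 1 for Distal and 0 for Outside without the second S4 library, and 5 for Proximal without either S1 library. The S6 class count for Proximal was 6 without the second S4 library. These comparisons share the S4 libraries, and a larger count in S6 is no test of S6 against S5. S6 and S5 differed on their own in 4 classes, 2 of 20 for Distal (10%) and 2 of 20 for Outside (10%), all of them higher in S6. Leaving out 1 library at a time, these counts ran from 0 to 2 for both primers, and they fell in 11 of 14 runs for Distal (to 0 without the first S5 or second S6 library) and in 4 of 14 for Outside (to 0 without either S6 library). The classes were Distal 5 to 10 Mb on the higher side (1.42% ± 0.333 in S6 and 0.957% ± 0.0476 in S5, adjusted p = 0.0472) and Distal 2 to 5 Mb on the lower side (5.57% ± 0.00865 and 4.26% ± 0.251, adjusted p = 0.0121). The others were Outside 2 to 5 Mb (2.03% ± 0.0389 and 1.44% ± 0.104, adjusted p = 0.0144) and Outside 5 to 10 Mb (1.86% ± 0.00433 and 1.24% ± 0.156, adjusted p = 0.0121), both on the higher side. In 50 kb windows, 1 of 73 Distal windows, given above (1.37%), and 1 of 79 Outside windows (1.27%) differed, the second not being called without the first S5 library or either S6 library. The Outside window, at 109400001 to 109450000, had 47.0 and 48.1 lines per 10000 in S6 and 11.5 and 28.4 in S5 (log2 difference 1.25, adjusted p = 0.0165).

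Whether the primers changed differently was tested window by window as a difference of their log2 changes. Proximal and Distal differed in 0 of 70 windows, and Distal and Outside in 0 of 71. At an unadjusted p below 0.05 these were 10 and 4 windows. Proximal and Outside differed in 1 of 68 (1.47%), at 111050001 to 111100000, next to the Outside viewpoint. Proximal had 105.9, 82.0, 78.2 and 65.1 lines per 10000 there in the late libraries, against 52.5 and 54.9 in the S4 libraries. Outside had 642.8, 622.2, 554.1 and 561.0 in the late libraries, against 739.2 and 742.9 in the S4 libraries. The log2 changes were 0.58 and -0.32, and their difference 0.90 (SE 0.25, adjusted p = 0.0459). The call is lost in 16 of 28 runs that leave out 1 library, among them those without either S4 library of either primer (adjusted p between 0.138 and 0.197), and with whole-library scaling (0.0583).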

How the data were processed

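K562-FUCCI cells were fixed with formaldehyde, digested with DpnII, ligated in situ and read by extension of a biotinylated primer, per the labels' protocols. Per the submitters' processing notes, cutadapt and bedtools were used, and positions are in hg19. Tool versions, the aligner, barcode handling and how all libraries came to 16350 lines were not given in the sources used here. The deposited files hold 1 position per line (chromosome, start, end) with no value column, so the authors gave no count, ratio or score, and lines were counted here. The unit of the files is therefore a position, and no count model was fitted as the main test.

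Viewpoints were taken as the most frequent position of each primer. Lines per 50 or 20 kb window, over 20 kb and at most 2 Mb away, where the mean was 10 lines or more, were scaled to local lines or to the whole library. Log2(value + smallest non-zero scaled value) was tested in limma with eBayes and a trend, 7 fraction means and 14 libraries per primer, and Benjamini-Hochberg adjustment within a primer. Changes of low windows are understated by the pseudocount. Distance classes used log2 of the percent of lines, without the trend. Only the 50 kb window fit with local scaling was first tested on simulated counts, and the other fits were not. The outcome is not given here. Those counts were drawn independently for each window and library, with a common dispersion per primer. They held no repeated positions, so they do not show how the fit performs with such lines. Intervals and spreads cover counting and library error only, since repeated positions cannot be told apart from repeated amplification of 1 molecule. The SDs of the late libraries also hold the difference between S5 and S6.

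The members, stretches and regions were chosen with earlier results of these data known. Named windows are those called with the same sign in replicate 1 and replicate 2 alone, at most 8 per direction, primer and scaling by the size of the log2 change, adjoining ones merged, plus the 3 largest changes that did not pass (mean of at least 30 lines) where fewer than 3 were called, called 20 kb windows that overlap them, and the windows that hold the other viewpoints. Every distance class could be named. Alternatives covered window size, filter, excluded zone, pseudocount, trend, a quasi-Poisson model, repeated positions, the libraries fitted, a replicate block, class denominators and leaving out each library. Software: limma 3.58.1 under R 4.3.3, and Python 3.11.15 with matplotlib 3.10.9, scipy 1.17.1, pandas 2.3.3 and numpy 2.4.6.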

Additional observations from a re-analysis of the deposited data

Results flagged for a closer look

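The change of S5 and S6 against S4 differed between the Proximal and Outside viewpoints in the window at 111050001 to 111100000 on chromosome 9, by 0.90 on the log2 scale (SE 0.25, limma adjusted p = 0.0459), by a test of the difference itself. Proximal averaged 82.8 ± 17.0 lines per 10000 local lines in late libraries and 53.7 ± 1.74 in S4 libraries. Outside averaged 595.0 ± 44.2 in late libraries and 741.1 ± 2.64 in S4 libraries. The window adjoins the Outside viewpoint. It was the only 1 of 68 windows called, and its adjusted p reached 0.197 among the alternative settings.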

How the results depend on the processing

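The 2 S4 libraries per primer limit every comparison with S4, and S6 against S5 rests on 2 libraries of each. Of 32 called distance classes, 15 passed under every limma setting run on single classes. The exact permutation test, which no class can pass here, is left out of that count. Of the named windows that were called, 4 of 35 with local and 4 of 32 with whole-library scaling passed under every setting run on single windows. They were the Distal windows at 110100001, 110150001, 110200001 and 111650001 in both. None of the called values changed sign. With 10 kb windows, which hold fewer lines each and are more in number, the calls were 0 for Proximal, 8 for Distal and 0 for Outside with local scaling, and 0, 7 and 0 with whole-library scaling. At an unadjusted p below 0.05 in limma, Proximal and Outside had 18 and 29 such windows with local and 26 and 31 with whole-library scaling. The cause of these and the following changes was not tested.

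With local scaling, the calls (9 Proximal, 18 Distal, 11 Outside) became 9 for Distal and 7 for Outside with 20 kb windows, 5 for Proximal with each position counted once, 10 for Distal and 2 for Outside without the trend, and 2, 10 and 2 with a quasi-Poisson model. With whole-library scaling (7, 19, 9), Proximal had 11 with at least 30 lines, 12 with 50 kb excluded, 11 with each position counted once and 12 with the 6 libraries of S4 to S6 alone. Distal had 10 without the trend, and Outside 15 with each position counted once, 0 without the trend (16 windows at an unadjusted p below 0.05 in limma) and 2 with a quasi-Poisson model. Classes numbered 4, 6 and 6 as percent of local lines, where only 10 were tested, and Distal had 8 with limma on the percent itself. The exact permutation test called 0 for each primer, since it cannot reach 0.05 with 4 against 2 libraries. The difference between Proximal and Outside gave 0 calls with whole-library scaling.

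The labels do not say what a replicate number marks. Correlations of same-numbered deviations between fractions ran from -0.215 to 0.298 for Proximal, -0.389 to 0.272 for Distal and -0.285 to 0.356 for Outside, and passed 0.1 in 7, 7 and 10 of 21 pairs, so the numbers were not treated as pairs. The share within 20 kb was higher in replicate 2 than in replicate 1 in 6 of 6 S fractions for Distal and Outside and in 4 of 6 for Proximal, and the part of this in the results was not tested beyond the block. Each group holds both numbers equally. With the replicate block, whole-library calls were 13 for Proximal and 14 for Outside, and the difference between Proximal and Outside gave 0.

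Leaving out 1 library at a time gave 1 to 12 calls for Proximal, 7 to 20 for Distal and 2 to 11 for Outside with local scaling, and 2 to 12, 7 to 22 and 4 to 10 with whole-library scaling. Proximal local calls were 3 and 1 without the first and the second S4 library and 5 without the second S5 or first S6 library. Proximal whole-library calls were 2 without either S4 library, 12 without either S1 library and 11 without the second S2 library. Distal calls were 9 and 7 locally and 8 and 7 over the whole library without the first and the second S4 library, 10 and 12 without the second S5 library, and 11 locally without the first S6 library. Without the second S4 library Outside had 2 local and 4 whole-library calls. Classes gave 5 to 10, 8 to 13 and 7 to 12. Differences gave 0 to 1 for Proximal minus Distal, 0 to 3 for Proximal minus Outside and 0 to 0 for Distal minus Outside. Distance differences gave -4.63 to -2.70 kb (Proximal higher side), 118.3 to 165.3 (Proximal lower), 46.3 to 64.3 (Distal higher), 95.4 to 134.1 (Distal lower), 3.21 to 13.5 (Outside higher) and 80.5 to 103.6 kb (Outside lower).

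Values that changed sign were all uncalled. The Proximal higher-side distance, -3.64 kb, became 2.73 kb with each position counted once, 5.58 kb with 50 kb excluded and 8.99 kb as a mean. The other values are log2 changes. Each position counted once gave -0.029 for the Outside window that holds the Proximal viewpoint, -0.0050 and -0.018 for other chromosomes (Proximal, Outside), 0.015 for Distal within 20 kb, -0.11 for Outside 250 to 500 kb lower and -0.035 for Outside beyond 20 Mb lower. Over lines beyond 20 kb, Outside 250 to 500 kb lower gave -0.021 and beyond 20 Mb lower -0.0085. Over local lines, Proximal 20 to 100 kb higher gave 0.045 and Distal 500 kb to 1 Mb higher 0.026. Leaving out 1 library gave -0.20 to 0.036 for the Distal window that holds the Outside viewpoint, and for the Outside window that holds the Proximal viewpoint -0.021 to 0.088 with local and -0.044 to 0.034 with whole-library scaling. Among classes it gave -0.041 to 0.044 (Proximal within 20 kb), -0.12 to 0.038 (Proximal 20 to 100 kb higher), -0.035 to 0.030 (Distal 500 kb to 1 Mb higher), -0.11 to 0.045 (Distal 500 kb to 1 Mb lower) and -0.12 to 0.060 (Distal beyond 20 Mb lower). It gave -0.15 to 0.15 (Distal other chromosomes), -0.50 to 0.87 (Outside beyond 20 Mb higher), -0.021 to 0.026 (Outside 250 to 500 kb lower), -0.0095 to 0.76 (Outside 10 to 20 Mb lower) and -0.019 to 0.048 (Outside beyond 20 Mb lower).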
